A study of Rattus norvegicus with 9 samples.

Results

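A set of 9 genes of the epicardial and fibroblast lineages of the heart was followed in cultures of neonatal rat cardiomyocytes. Lentivirus was used with the aim of raising or lowering TCF7L2. The set held the transcription factor genes Tcf21, Twist1, Wt1 and Tbx18 and the retinaldehyde dehydrogenase genes Aldh1a1 and Aldh1a2. Also in it were the growth factor receptor gene Pdgfra and the mesothelial surface protein genes Msln and Upk3b. The 9 genes were chosen by symbol, with earlier results of these data known. Upk3b was not analysed here, which left 8 genes of the 14607 listed in at least 1 library. All 8 passed the filter on low counts. Primary cells came from enzyme-digested hearts of SD rats 1 to 2 days old. In every group the cells were infected for 16 h and then kept for 48 h in medium with 10% fetal bovine serum and antibiotics. The groups were lenti-NC (vector control), lenti-TCF7L2 (TCF7L2 overexpression) and lenti-shTCF7L2 (TCF7L2 knockdown by a short hairpin RNA), with 3 libraries each. The labels give no further genotype change, name no promoter for the transgene, and do not say whether replicates came from separate isolations, so p-values measure only the spread between these libraries, which may be technical.

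The epicardium is the mesothelial sheet over the heart. During development some of its cells leave the sheet, turn mesenchymal and become cardiac fibroblasts and mural cells of the coronary vessels. WT1, TBX18, TCF21 and the retinoic acid enzyme ALDH1A2 mark the sheet and its descendants, TCF21 and the receptor PDGFRA are kept in fibroblasts, and mesothelin and the uroplakin UPK3B are surface proteins of mature mesothelium. TCF7L2 is a DNA-binding partner of beta-catenin in the Wnt pathway. Digests of neonatal hearts carry such non-muscle cells along with cardiomyocytes.

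The sequence before the annotated start was read for the 3 members with the widest differences between the lenti-TCF7L2 and lenti-shTCF7L2 groups, since TCF7L2 belongs to a family that binds sites with the core CTTTGA or CTTTGT. Each line gives 250 bases, 5′ to 3′ toward the start, from the RefSeq table of build GRCr8: Aldh1a2 from chr8:80758391-80758640 on the plus strand, Pdgfra from chr14:33408517-33408766 on the minus strand, and Tcf21 from chr1:24520249-24520498 on the plus strand. Capitals mark a match to CTTTGA or CTTTGT on either strand.
Aldh1a2: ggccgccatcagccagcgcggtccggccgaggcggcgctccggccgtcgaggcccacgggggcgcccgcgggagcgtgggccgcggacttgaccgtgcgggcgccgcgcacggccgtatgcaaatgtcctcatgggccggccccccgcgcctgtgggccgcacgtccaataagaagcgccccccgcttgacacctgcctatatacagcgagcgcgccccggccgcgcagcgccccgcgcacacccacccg
Pdgfra: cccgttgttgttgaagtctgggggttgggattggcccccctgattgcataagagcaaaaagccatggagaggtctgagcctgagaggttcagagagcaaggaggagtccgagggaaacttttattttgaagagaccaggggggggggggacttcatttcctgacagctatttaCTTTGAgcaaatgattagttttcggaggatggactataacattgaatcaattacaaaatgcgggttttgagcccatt
Tcf21: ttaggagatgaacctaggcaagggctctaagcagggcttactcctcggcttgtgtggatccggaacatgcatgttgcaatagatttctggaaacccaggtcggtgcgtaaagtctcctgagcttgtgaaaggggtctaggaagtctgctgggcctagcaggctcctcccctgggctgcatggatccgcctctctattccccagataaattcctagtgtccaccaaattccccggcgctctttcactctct
A window was given for 7 of the 8 members, all but Msln. CTTTGA stood in 1 of the 7, that of Pdgfra, from base 77 to base 72 before the start, against 13.8% of all 27457 windows. CTTTGT stood in 0 of the 7 against 16.0% of all windows. CANNTG, the E-box core that factors such as TCF21 and TWIST1 bind, stood in 5 of the 7 against 65.2% of all windows, and not in the windows of Tcf21 and Twist1. The CAAATG of the Pdgfra window follows the CTTTGA match with 1 base between them. These are matches of letters in 1 short window, not binding sites.

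Tcf7l2 itself checked the labels. Its level in CPM (counts scaled to library size) was 34.1 to 40.0 in lenti-NC, 85.7 to 206 in lenti-TCF7L2 and 25.6 to 30.3 in lenti-shTCF7L2. The overexpression libraries thus differed among themselves in Tcf7l2, with replicate 2 the highest and replicate 3 the lowest, while the knockdown libraries lay below every control by a fold of 0.74 that did not pass the test (adjusted p = 0.511, edgeR). Libraries held 15085922 to 16478295 expected counts. Log2 CPM values correlated at 0.994 or more within lenti-NC and within lenti-shTCF7L2, but as low as 0.948 within lenti-TCF7L2. Replicate 3 of lenti-TCF7L2 stood apart: genes of 6000 bases or more had a median log2 CPM 0.83 below the control mean there, and genes under 1500 bases had a median 0.39 above it. Cardiomyocyte markers had the highest summed FPKM (fragments per kilobase of gene length, scaled to library size) of the cell type lists in lenti-NC and lenti-shTCF7L2 and in lenti-TCF7L2 their range overlapped that of fibroblast and matrix genes.

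With lenti-TCF7L2, 5 of the 8 lineage genes rose against the vector control (Aldh1a2, Pdgfra, Twist1, Tcf21 and Wt1), 1 fell (Aldh1a1), and Tbx18 and Msln did not pass the test. The called changes ran from -1.81 (Aldh1a1) to 1.18 (Aldh1a2) on the log2 scale. With lenti-shTCF7L2, Tcf21 fell by 50.2% and Aldh1a2 fell by 48.1%, and 0 members rose by edgeR, DESeq2, limma or an unadjusted p under 0.05. A gene is called here where edgeR's quasi-likelihood p, adjusted by Benjamini-Hochberg over all 11761 genes tested, is under 0.05. In the overexpression comparison 31.8% of all tested genes were called, 18.0% higher and 13.8% lower, so a large part of the transcriptome moved with these genes. In the knockdown comparison 3.64% of all tested genes were called, 1.32% higher and 2.32% lower. Each list count of the main analysis below is to be read beside the shares of its comparison. In these bulk libraries fewer cells of a type and less RNA per cell cannot be told apart.

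**Figure D1:**
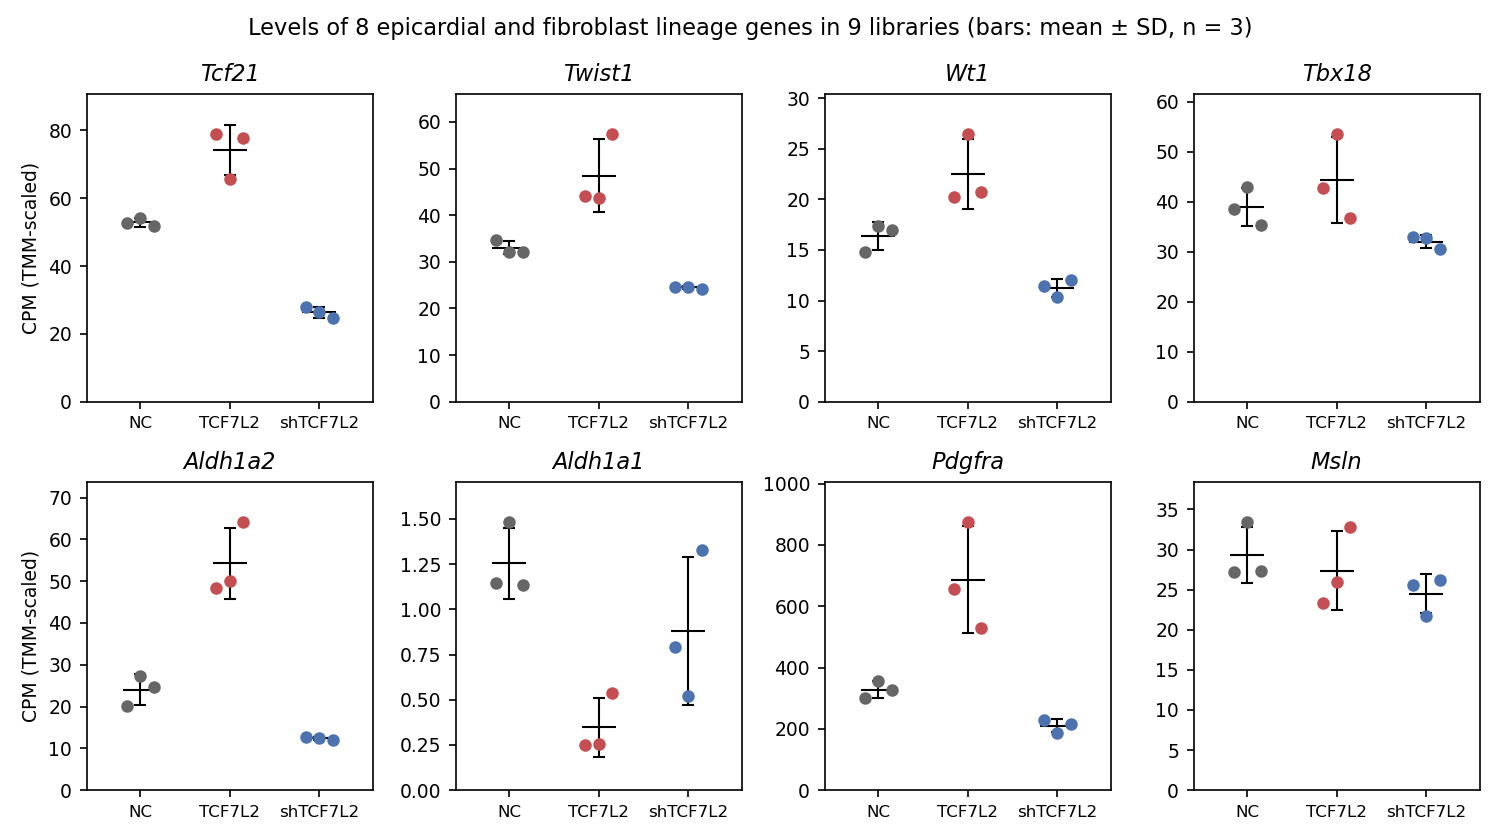
Level of each of 8 genes in each of 9 libraries, in TMM-scaled CPM on an axis from 0; points are libraries and bars the mean ± SD of 3. Tcf21, Twist1, Wt1, Aldh1a2 and Pdgfra lie in the order lenti-shTCF7L2, lenti-NC, lenti-TCF7L2 with no overlap, Aldh1a1 is lowest in lenti-TCF7L2, and lenti-TCF7L2 overlaps both other groups for Msln.

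Tcf21 (gene ID 252856) encodes a basic helix-loop-helix factor needed for epicardial cells to become cardiac fibroblasts. Its level was 52.7, 54.2 and 51.7 CPM in the lenti-NC libraries, 79.0, 65.6 and 77.8 CPM in lenti-TCF7L2, and 27.9, 26.5 and 24.6 CPM in lenti-shTCF7L2. All overexpression libraries were above all controls, all knockdown libraries below them, and the controls varied little. The mean was 52.8 ± 1.25 CPM in lenti-NC, 74.2 ± 7.40 in lenti-TCF7L2 and 26.3 ± 1.66 in lenti-shTCF7L2 (SD, n = 3 each). Against lenti-NC the log2 difference was 0.49 (SE 0.09, edgeR adjusted p = 0.00379) with overexpression. It was -1.01 (SE 0.09, edgeR adjusted p = 0.00141) with knockdown, the larger of the 2 in size. Only 1.02% of tested genes had a lower difference than Tcf21 in the knockdown comparison, whereas 14.0% had a higher one in the overexpression comparison. The 3 genes whose pattern over the 9 libraries lay closest to that of Tcf21 were B3gnt2, Gbp2 and C1s, at root mean square distances of 0.13, 0.13 and 0.14 on the log2 scale among 10220 genes searched, where Tcf21 itself spread by 0.62 about its mean.

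Twist1 (gene ID 85489), a related helix-loop-helix factor of mesenchymal cells, was measured at 34.6, 32.2 and 32.2 CPM in lenti-NC, 44.2, 43.7 and 57.5 CPM in lenti-TCF7L2, and 24.7, 24.6 and 24.2 CPM in lenti-shTCF7L2. The 3 groups did not overlap, the knockdown libraries were nearly equal, and replicate 3 was the high one among the overexpression libraries. Twist1 rose with overexpression by 0.55 on the log2 scale (SE 0.11, edgeR adjusted p = 0.00593). The log2 difference with knockdown was -0.43 (SE 0.11, edgeR adjusted p = 0.0858) and was not called. Fxyd6, Wisp2 and Tf had the closest patterns, at distances of 0.071, 0.078 and 0.079.

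Wt1 (gene ID 24883), a zinc finger factor of the epicardium and of other mesothelia, stood at 14.8, 17.4 and 17.0 CPM in lenti-NC. It reached 20.2, 26.5 and 20.7 CPM in lenti-TCF7L2 and 11.4, 10.3 and 12.0 CPM in lenti-shTCF7L2. The groups again did not overlap, and here replicate 2 was the high overexpression library. Wt1 rose with overexpression by 0.46 (SE 0.13, edgeR adjusted p = 0.0270), a call that was lost without any 1 of the 3 control libraries (adjusted p = 0.103, 0.0575 and 0.0669 without replicates 1, 2 and 3) and with only the 6 libraries compared (adjusted p = 0.0733). With knockdown the difference was -0.54 (SE 0.13, edgeR adjusted p = 0.0649). The nearest patterns were those of Ugcg, Lpl and Aebp1, at 0.074, 0.075 and 0.092.

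Tbx18 (gene ID 315870), a T-box factor of the early epicardium, had the smallest differences among the 4 factors. It was measured at 38.6, 43.0 and 35.3 CPM in lenti-NC, 42.7, 53.6 and 36.8 CPM in lenti-TCF7L2, and 32.9, 32.7 and 30.5 CPM in lenti-shTCF7L2. Overexpression and control libraries overlapped, and the knockdown libraries were below both. The log2 difference with overexpression was 0.19, with a 95% interval of -0.12 to 0.50 (edgeR adjusted p = 0.318), and with knockdown -0.28 (adjusted p = 0.372). Between the overexpression and knockdown groups Tbx18 differed by 0.47 (SE 0.14, edgeR adjusted p = 0.0287), a call lost in 5 of 19 alternatives: with only the 6 libraries compared (adjusted p = 0.0672) and without lenti-TCF7L2 replicate 1 or any 1 knockdown library (adjusted p up to 0.0986). Among the lenti-TCF7L2 libraries Tbx18 ranked as Tcf7l2 did, highest in replicate 2 and lowest in replicate 3. Tbx18 is also 4611 bases long and Tcf7l2 4017, and genes of 3000 to 6000 bases ranked the same way. Their median log2 CPM lay -0.08, 0.06 and -0.31 from the control mean in replicates 1, 2 and 3. Without lenti-TCF7L2 replicate 3 the Tbx18 difference with overexpression was 0.29 (edgeR adjusted p = 0.0366). With a length trend removed from each library it was 0.35 (edgeR adjusted p = 0.00866). Zcchc24, Fam117b and Arnt2 had the nearest patterns, at 0.072, 0.079 and 0.079.

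Other transcription factors of mesenchymal, epicardial and heart development were read from a list of 31, all of which were tested. With overexpression 11 were called higher and 6 lower, beside 18.0% and 13.8% of all tested genes. The median log2 difference of the list was 0.06 against 0.03 over all tested genes. Snai1, a repressor that drives the epithelial to mesenchymal change, rose by 0.94 (SE 0.07, edgeR adjusted p = 4.63e-05), Prrx2 rose by 0.98, and Twist2, the paralog of Twist1, was also among the genes called higher. The inhibitor Id3, which blocks helix-loop-helix partners, rose by 0.89 (edgeR adjusted p = 6.31e-04) and was the 1 factor of the list called with knockdown, where it fell by 0.76 (edgeR adjusted p = 0.00975). Genes called lower were Zeb1, Id4 and the cardiac factors Tbx5, Hand1, Gata4 and Gata5, and Gata5 fell by 1.09 (edgeR adjusted p = 5.40e-05). Without lenti-TCF7L2 replicate 3 the knockdown comparison called 11 factors lower and 1 higher (Klf4), and Id3 was still among the lower ones. Many more of all tested genes were called in that setting too, as given below.

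The retinaldehyde dehydrogenases went in opposite directions with overexpression. Aldh1a2 (gene ID 116676), the main enzyme of retinoic acid synthesis in the epicardium, was measured at 20.0, 27.4 and 24.6 CPM in lenti-NC, 48.5, 50.1 and 64.1 CPM in lenti-TCF7L2, and 12.7, 12.5 and 12.1 CPM in lenti-shTCF7L2. Every overexpression library was well above every control, and the knockdown libraries lay together below them. Aldh1a2 rose with overexpression by 1.18 on the log2 scale (SE 0.14, 2.26-fold, edgeR adjusted p = 4.77e-04) and fell with knockdown by 0.95 (SE 0.15, edgeR adjusted p = 0.0104). The knockdown call was lost without control replicate 2 or 3 or any 1 knockdown library (adjusted p from 0.0529 to 0.0678). Between overexpression and knockdown the difference was 2.12 (SE 0.15, 4.36-fold, edgeR adjusted p = 2.80e-05), which 0.961% of tested genes exceeded. Cpxm1, Hdc and Frzb, the last a secreted Wnt antagonist, had the nearest patterns, at 0.097, 0.11 and 0.12, where Aldh1a2 itself spread by 0.87.

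Aldh1a1 (gene ID 24188), a paralog that also oxidises retinaldehyde, was scarce. Its expected counts were 17, 22 and 17 in lenti-NC, 4, 4 and 9 in lenti-TCF7L2, and 12, 8 and 20 in lenti-shTCF7L2. The overexpression libraries were below every control, and the knockdown libraries overlapped both groups. Aldh1a1 fell with overexpression by 1.81 on the log2 scale, with a 95% interval of -2.77 to -0.85 (SE 0.42, edgeR adjusted p = 0.0115). With knockdown the difference was -0.51 (SE 0.36, edgeR adjusted p = 0.600). The near-identical gene Aldh1a7, at 0 to 6 counts and not tested, may share reads with Aldh1a1, so how these few reads were split is uncertain. On the FPKM scale, which is per length, Aldh1a2 exceeded Aldh1a1 by 16.4 to 20.5 times in lenti-NC, by 115 to 188 times in lenti-TCF7L2 and by 8.48 to 22.3 times in lenti-shTCF7L2.

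Of 25 other genes of retinoic acid handling and response, 24 were listed and 20 tested. With overexpression 7 were called higher and 2 lower, beside 18.0% and 13.8% of all tested genes, with a median log2 difference of 0.41. Those that rose included Dhrs3 by 1.19 (SE 0.23, edgeR adjusted p = 0.00494), which reduces retinaldehyde back to retinol, and Lrat by 0.99 (adjusted p = 0.0126), which stores retinol as esters. The receptors Rxrb and Rarg rose by 0.74 and 0.58, and the response genes Rarres1 and Rarres2 by 1.03 and 1.13. Rarb, a receptor gene that retinoic acid itself is known to induce, fell by 0.51 (SE 0.16, edgeR adjusted p = 0.0396), and the enzyme Aldh1a3 fell by 0.91 (adjusted p = 0.0217). With knockdown 0 of the 20 were called by edgeR, 4 had an unadjusted p under 0.05, and DESeq2 and limma each called 1 higher. When lenti-TCF7L2 replicate 3 was left out of the fit, 3 were called lower (Rarres1, Rarres2 and Dhrs3) and 1 higher (Rxrb).

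Pdgfra (gene ID 25267) encodes the PDGF receptor of fibroblasts and their progenitors and was the most abundant member. Its level was 300.2, 356 and 327 CPM in lenti-NC, 656, 874 and 529 CPM in lenti-TCF7L2, and 228, 186 and 215 CPM in lenti-shTCF7L2. The groups did not overlap, and the overexpression libraries ranked as their Tcf7l2 levels did, with replicate 2 highest and replicate 3 lowest. Genes of 6000 bases or more ranked the same way. Their medians lay -0.27, -0.003 and -0.83 from the control mean in replicates 1, 2 and 3. The part of length in this order was not tested. Of the members only Pdgfra and Tbx18 kept the order of Tcf7l2. Aldh1a2, Twist1, Msln and Aldh1a1 were highest in replicate 3, where Tcf7l2 was lowest. Tcf21 was lowest in replicate 2, where Tcf7l2 was highest, and Wt1 was highest in replicate 2 but lowest in replicate 1. Pdgfra rose with overexpression by 1.07 (SE 0.17, 2.10-fold, edgeR adjusted p = 0.00185). The difference with knockdown was -0.64 (SE 0.17) and was not called (edgeR adjusted p = 0.0838). Pdgfra is 6532 bases long, the longest member, and in replicate 3 it lay 0.69 above the control mean where genes of its length range had a median 0.83 below it. The nearest patterns were those of Slit3, Prelp and Spon1, all encoding secreted proteins, at 0.12, 0.14 and 0.14, where Pdgfra itself spread by 0.72.

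**Figure D2:**
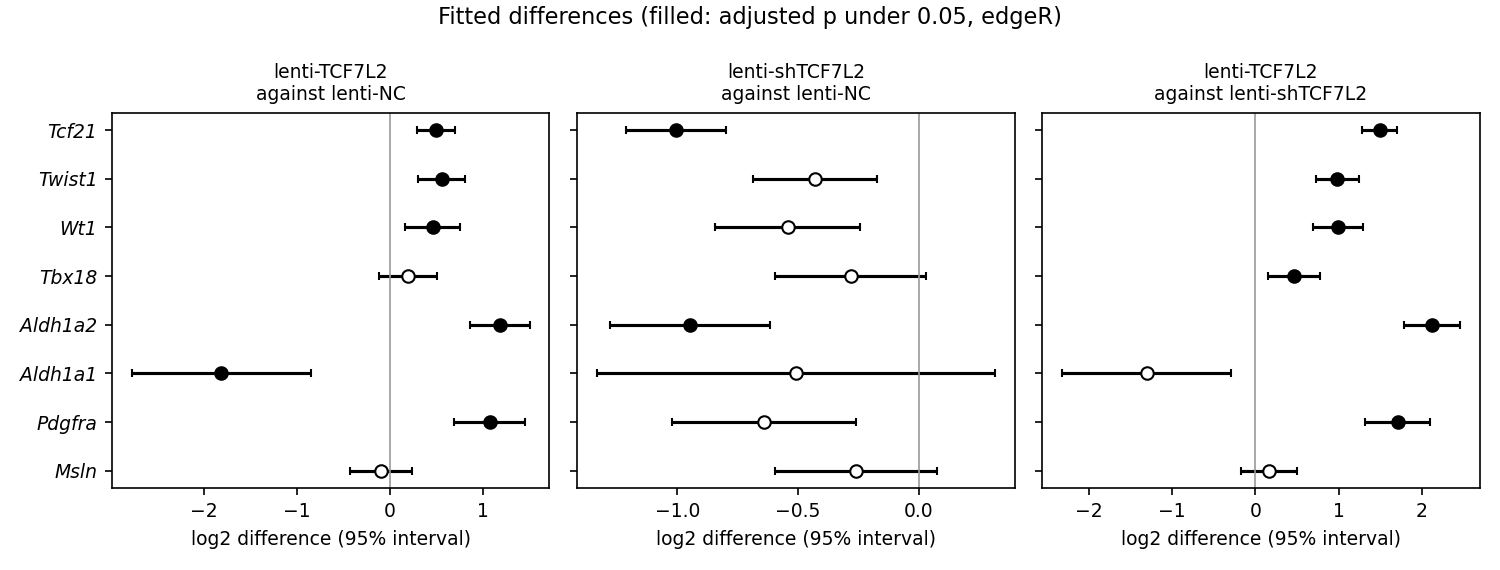
Fitted log2 difference of each gene in 3 comparisons, with 95% intervals on separate linear axes; filled points have an edgeR adjusted p under 0.05. Aldh1a2 and Pdgfra lie farthest to the right with overexpression at 1.18 and 1.07, Aldh1a1 farthest to the left at -1.81, and in the knockdown panel all 8 points are below 0 with Tcf21 and Aldh1a2 filled.

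All 6 other PDGF genes were tested, and with overexpression 3 were called higher and 1 lower, beside 18.0% and 13.8% of all tested genes. Pdgfb, a ligand gene typical of endothelium, rose from 4.32 to 15.4 CPM, by 1.83 on the log2 scale (SE 0.24, edgeR adjusted p = 7.87e-04). Pdgfa, which encodes the classical ligand of PDGFRA, rose by 0.41 (adjusted p = 0.0201), and Pdgfrb, the receptor of mural cells and fibroblasts, by 0.45 (SE 0.12, adjusted p = 0.0180). Pdgfc fell by 0.80 (adjusted p = 0.0175). With knockdown edgeR, DESeq2 and limma called 0 of the 6, 1 had an unadjusted p under 0.05 in edgeR, and edgeR called 2 lower (Pdgfa and Pdgfd) without lenti-TCF7L2 replicate 3. On the FPKM scale the ratio of Pdgfra to Pdgfrb was 0.254 to 0.307 in lenti-NC, 0.393 to 0.472 in lenti-TCF7L2 and 0.174 to 0.211 in lenti-shTCF7L2, with no overlap between groups.

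Msln (gene ID 60333), which encodes the mesothelial surface protein mesothelin, was called in none of the 3 comparisons of the main analysis. In 1 of 19 alternatives, with only the 6 libraries compared, Msln was called lower with knockdown (edgeR adjusted p = 0.0279). Many more of all tested genes were called in that setting too. It was measured at 27.2, 33.4 and 27.3 CPM in lenti-NC, 23.3, 26.0 and 32.9 CPM in lenti-TCF7L2, and 25.6, 21.7 and 26.1 CPM in lenti-shTCF7L2. The overexpression libraries overlapped the controls, and the knockdown libraries lay just below the lowest control. The log2 difference was -0.10 with overexpression (95% interval -0.43 to 0.24, edgeR adjusted p = 0.629) and -0.26 with knockdown (95% interval -0.60 to 0.07, edgeR adjusted p = 0.463). The overexpression interval holds the fitted difference of Tbx18 but not those of Tcf21, Wt1, Twist1, Aldh1a2 or Pdgfra. Msln was not tested directly against these genes, and this reading leaves out their own errors. Its nearest patterns, Zfp691, Arl4c and Camk1g at 0.077, 0.082 and 0.083, were likewise nearly flat.

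Other markers of epicardium and mesothelium went both ways with overexpression. Of 23 such genes 20 were listed and 19 tested, and 4 were called higher and 6 lower, with a median log2 difference of -0.01. Over all tested genes 18.0% were called higher and 13.8% lower. Prg4, a lubricating surface proteoglycan, was measured at 27.6, 25.2 and 25.9 CPM in lenti-NC, 57.4, 86.0 and 70.3 CPM in lenti-TCF7L2 and 14.7, 14.0 and 16.6 CPM in lenti-shTCF7L2, and its groups did not overlap. It rose with overexpression by 1.44 (SE 0.14, edgeR adjusted p = 1.91e-04) and fell with knockdown by 0.80 (SE 0.15, adjusted p = 0.0203). Also higher were the keratin Krt19, by 1.61 (adjusted p = 0.00911), the epicardial zinc finger gene Bnc2, by 1.12 (adjusted p = 0.0151), and the tight junction gene Cldn15, by 1.07 (adjusted p = 0.00343). The integrin subunit Itga4, which anchors the epicardium to the heart muscle, fell by 2.10 (SE 0.40, edgeR adjusted p = 0.00433). The guidance ligand Sema3d fell by 1.32, the matrix gene Efemp1 by 1.12 and the membrane glycoprotein Gpm6a by 0.91. The uroplakin Upk1b fell by 0.29 (edgeR adjusted p = 0.0490) and the transglutaminase Tgm2 by 0.26. DESeq2 and limma each called 4 of the 19 higher and 5 lower with overexpression. With knockdown Prg4 and the complement gene C3, which fell by 0.97 (adjusted p = 0.0174), were the 2 genes called, both lower, and 5 were called lower without lenti-TCF7L2 replicate 3. By an unadjusted p under 0.05 in edgeR, 2 genes of the list were higher with knockdown and 5 lower.

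**Figure D3:**
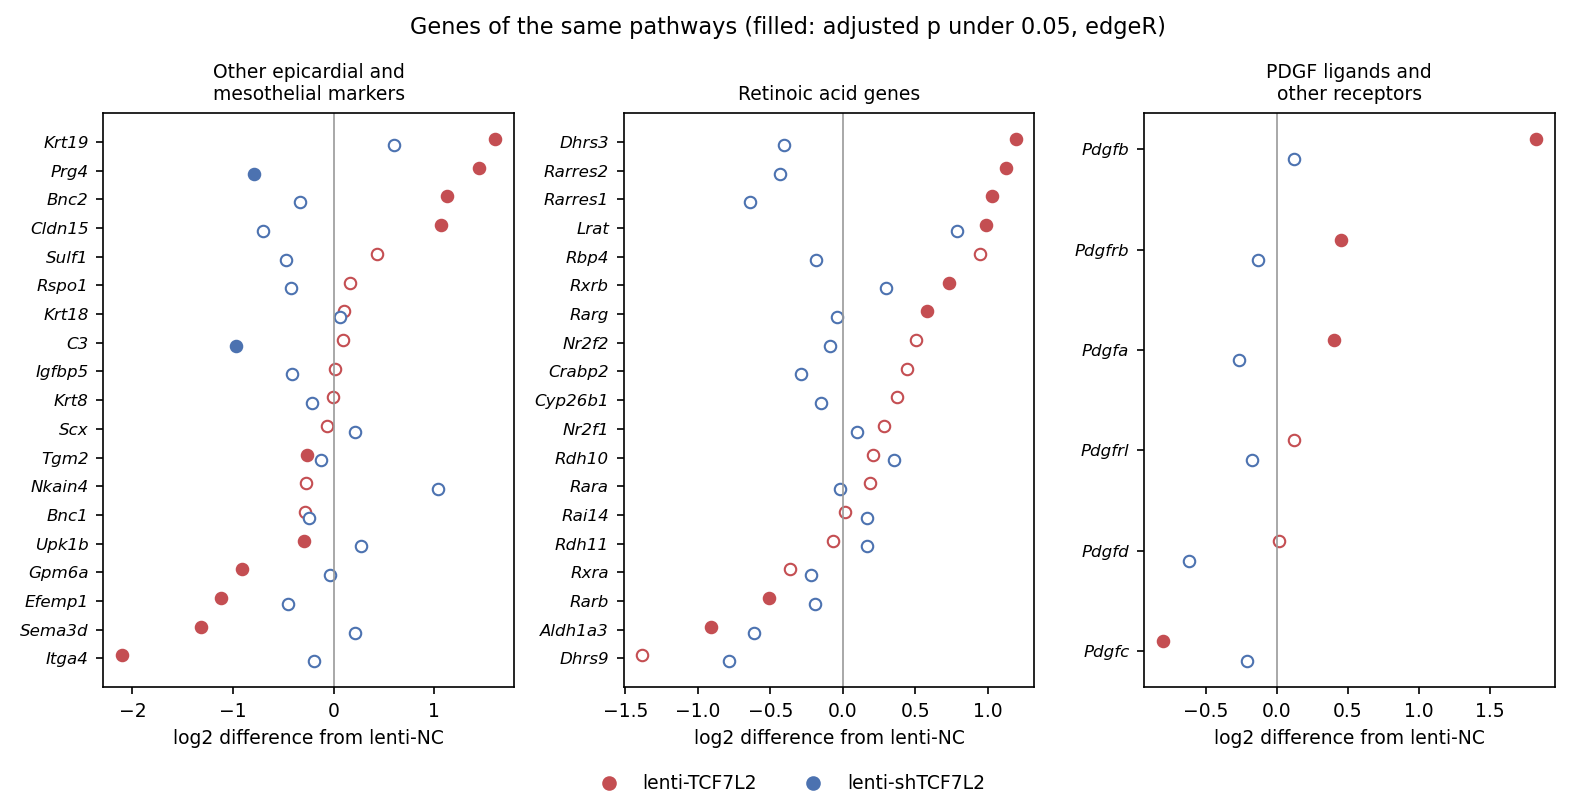
Fitted log2 difference from lenti-NC of genes tested from 3 lists, ordered by the overexpression difference, in red for lenti-TCF7L2 and blue for lenti-shTCF7L2; filled points have an edgeR adjusted p under 0.05. The epicardial list runs from Itga4 at -2.10 to Krt19 at 1.61, most called retinoic acid genes are to the right of 0, and the knockdown points filled are Prg4 and C3.

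Directly compared, overexpression and knockdown differed for 6 of the 8 members, all higher in lenti-TCF7L2, where 33.1% of all tested genes were called, 18.4% higher and 14.7% lower. The log2 difference was 2.12 for Aldh1a2, 1.71 for Pdgfra, 1.49 for Tcf21, 1.00 for Wt1, 0.98 for Twist1 and 0.47 for Tbx18 (edgeR adjusted p from 2.04e-05 to 0.0287), and the Tbx18 call was lost in 5 of 19 alternatives. For Aldh1a1 it was -1.30 (adjusted p = 0.0518) and for Msln 0.16 (adjusted p = 0.429). Groups did not overlap for 7 of the 8 members in the knockdown comparison, all lower and 0 higher, against 21.0% of tested genes that lay lower and 19.9% that lay higher without overlap. In the overexpression comparison 5 members lay higher without overlap and 1 lower, against 24.9% and 22.0% of tested genes. Both comparisons with lenti-NC share its 3 libraries, so a gene's 2 differences are not independent of each other.

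How many knockdown differences were called depended on the lenti-TCF7L2 libraries, which enter the shared estimate of spread. Without lenti-TCF7L2 replicate 3, 6 of the 8 members were called lower with knockdown: Twist1 (-0.45, edgeR adjusted p = 5.11e-04), Pdgfra (-0.66, adjusted p = 6.34e-04), Wt1 (-0.56, adjusted p = 0.00569) and Tbx18 (-0.30, adjusted p = 0.0455) joined Tcf21 and Aldh1a2. The genes called in all then numbered 2056 of 11820 tested in place of 428 of 11761. Every knockdown list count given without that library is to be read beside this larger share. The sizes of the members' differences hardly moved. Tcf7l2 itself was then also called lower with knockdown, at -0.45 (adjusted p = 0.0285).

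**Figure D4:**
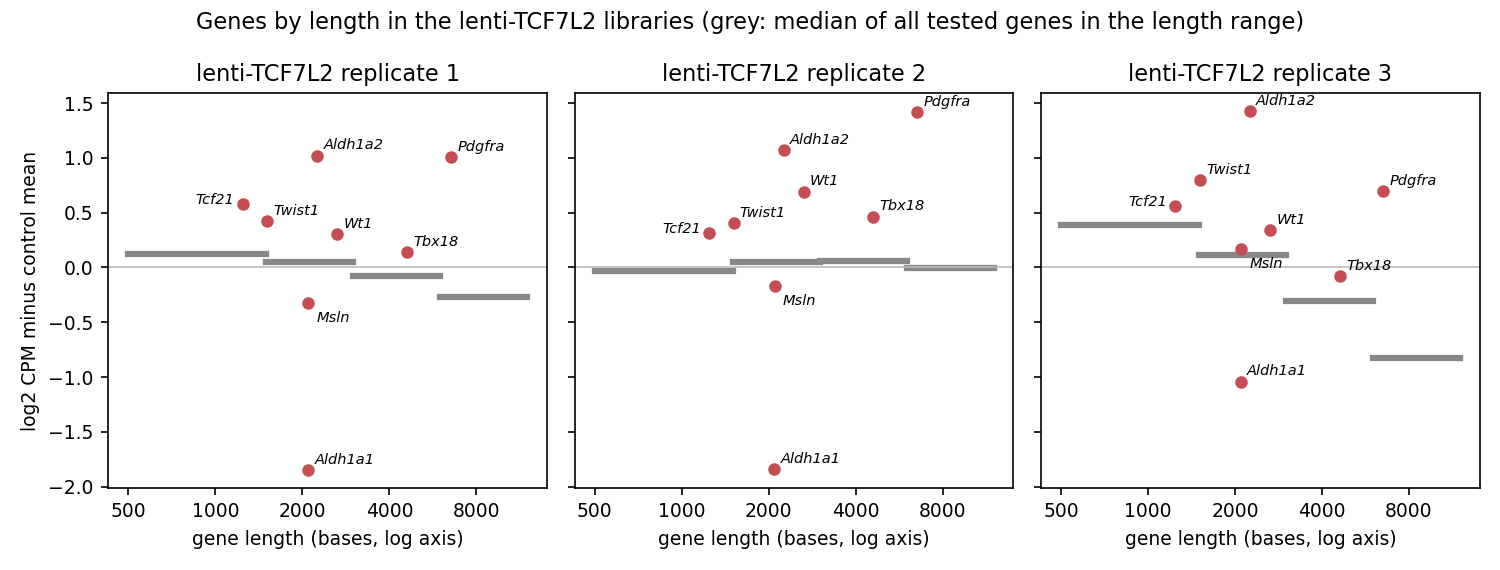
Log2 CPM of each gene minus the control mean against gene length (log axis) in the 3 lenti-TCF7L2 libraries; grey bars are medians of all tested genes in 4 length ranges. Grey bars fall from 0.39 to -0.83 in replicate 3 and stay near 0 in replicate 2, and Pdgfra and Aldh1a2 lie well above the bar of their range in all 3 panels.

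Per length, the members kept nearly the same order in every group. In lenti-NC the FPKM level was 48.5 ± 4.08 for Pdgfra, 42.1 ± 0.992 for Tcf21, 21.5 ± 0.950 for Twist1, 13.7 ± 1.64 for Msln, 10.4 ± 1.59 for Aldh1a2, 8.19 ± 0.807 for Tbx18, 6.05 ± 0.505 for Wt1 and 0.580 ± 0.0954 for Aldh1a1 (SD, n = 3 each). Of the neighbours in that order, Aldh1a2 and Tbx18 overlapped between libraries and the others did not. In lenti-TCF7L2 Pdgfra reached 105 ± 27.0 FPKM and Aldh1a2, at 24.3 ± 3.79, moved ahead of Msln at 13.2 ± 2.35. Msln then overlapped Tbx18, and Tbx18 overlapped Wt1. In lenti-shTCF7L2 Aldh1a2, at 5.52 ± 0.155 FPKM, dropped behind Tbx18 at 6.89 ± 0.318, with no overlap between them. The 8 levels summed to 145 to 160.3 FPKM in lenti-NC, 244 to 275 in lenti-TCF7L2 and 93.8 to 103 in lenti-shTCF7L2, and Pdgfra and Tcf21 were the largest terms.

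**Figure D5:**
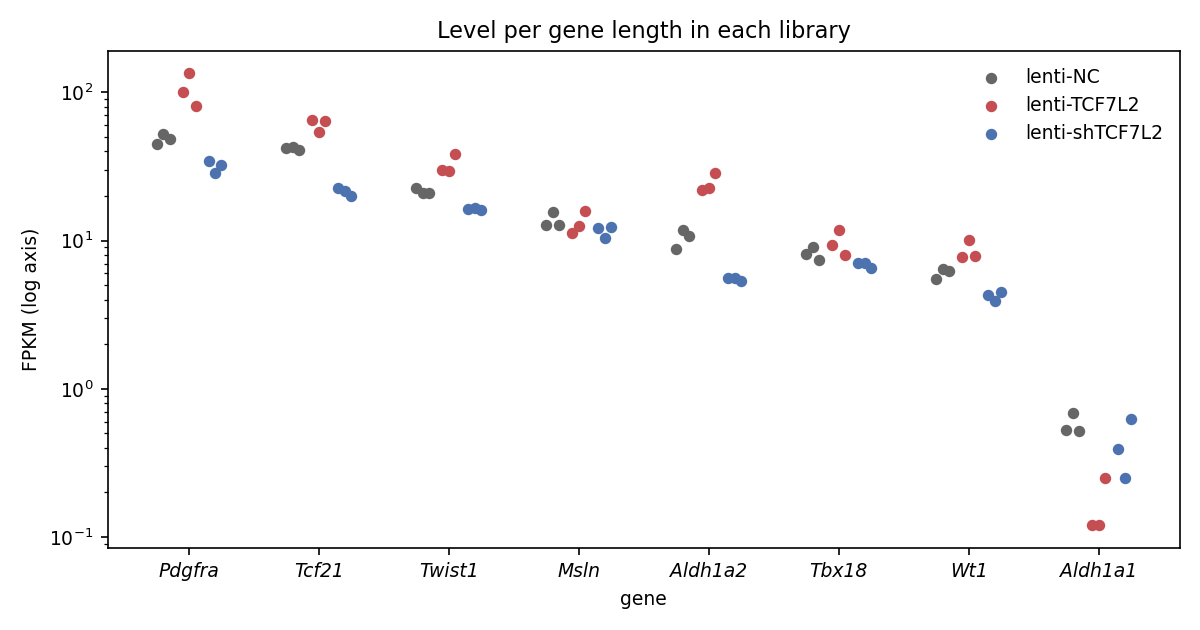
FPKM of each gene in each of 9 libraries on a log axis, genes ordered by the lenti-NC mean; grey is lenti-NC, red lenti-TCF7L2 and blue lenti-shTCF7L2. Pdgfra is highest at 48.5 FPKM in lenti-NC on average and Aldh1a1 lowest at 0.580, and Aldh1a2 changes its place relative to Msln and Tbx18 between groups.

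Marker lists of other cell types were read beside these genes. Over all tested genes 18.0% were called higher and 13.8% lower with overexpression, and 1.32% higher and 2.32% lower with knockdown. Fibroblast and matrix genes, of which 26 were tested, were called higher in 11 cases and lower in 1 (Thy1) with overexpression and lower in 8 cases with knockdown. Their summed FPKM ranged from 15929 to 16042 in lenti-NC, 17656 to 19553 in lenti-TCF7L2 and 15734 to 16273 in lenti-shTCF7L2, apart for overexpression and overlapping for knockdown and control. The small leucine-rich proteoglycan gene Dcn rose by 0.90 (edgeR adjusted p = 5.54e-04) and fell by 0.94 (adjusted p = 0.00380), and the matrix gene Fbln1 rose by 1.32 (adjusted p = 6.60e-04) and fell by 1.32 (adjusted p = 0.00512). With knockdown DESeq2 called 1 of the 26 fibroblast and matrix genes higher and 9 lower. Without lenti-TCF7L2 replicate 3 edgeR called 1 of them higher (Col1a1) and 11 lower with knockdown. With overexpression it then called 15 higher and 2 lower (S100a4 and Thy1). The count of all genes called with overexpression in that setting is given below only as a range over the libraries left out. Cardiomyocyte markers fell with overexpression in 11 of 12 cases, with a summed FPKM of 17336 to 24823. With knockdown 0 of the 12 were called by edgeR and limma, 1 by DESeq2 and 2 by edgeR without lenti-TCF7L2 replicate 3, and 1 had an unadjusted p under 0.05. Their sum was then 36500 to 37973 against 38159 to 40435 in lenti-NC.

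Endothelial markers rose with overexpression in 11 of 13 cases, with a median log2 difference of 1.78 and a summed FPKM of 91.7 to 127 against 43.3 to 49.95 in lenti-NC. The lowest of the 13 differences with overexpression was -0.50, and DESeq2 called 1 marker lower. With knockdown edgeR, DESeq2 and limma called 0 of the 13, and 1 had an unadjusted p under 0.05 in edgeR. Without lenti-TCF7L2 replicate 3 edgeR called 1 higher (Tek) and 1 lower (Flt1) with knockdown. Macrophage markers rose in 5 of 9 cases, with a summed FPKM of 63.6 to 75.7 against 33.7 to 35.1, and C1qb and Cd163 were at 0 or not listed throughout lenti-NC. With knockdown 2 macrophage genes (Csf1r and Lyz2) were called higher, and their sum was 37.0 to 39.3. Of 14 smooth muscle and pericyte genes 3 were called higher and 1 lower with overexpression, beside 18.0% and 13.8% of all tested genes. With knockdown 2 were called higher, beside 1.32% of all tested genes. The summed FPKM of this list was 5878 to 5978 in lenti-NC, 4966 to 6025 in lenti-TCF7L2 and 5804 to 6001 in lenti-shTCF7L2. Schwann cell genes summed to 2.87 to 3.17 FPKM in lenti-NC, 3.93 to 4.88 in lenti-TCF7L2 and 3.47 to 3.94 in lenti-shTCF7L2. Of these genes 4 were tested, with 1 (Ngfr) called higher with overexpression and 0 with knockdown by edgeR, DESeq2, limma or an unadjusted p under 0.05. The part of these shifts in the values of the lineage genes was not tested.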

How the data were processed

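RNA-seq libraries of neonatal rat cardiomyocytes, 3 each for lenti-NC, lenti-TCF7L2 and lenti-shTCF7L2, were grouped by their titles. Per the labels, oligo(dT) beads enriched the mRNA and a BGISEQ-500 read the libraries. The submitters' processing notes name HISAT2, Bowtie2, RSEM 1.3.1, DESeq2 1.4.5 and build rn6, with no roles or order. The authors deposited, per the file headers, an expected count (an estimate that need not be whole), an FPKM value and a gene length in bases for each gene and library. Whether counting used strand is not given in the sources used here.

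Expected counts were rounded, filtered with filterByExpr (11761 genes tested, 2846 set aside), scaled by TMM and fitted over all 9 libraries with edgeR 4.0.16's quasi-likelihood test in R 4.3.3. Calls use a Benjamini-Hochberg adjusted p under 0.05 over all tested genes. Log2 CPM values use a prior count of 2. Counts of 3 amount to 0.182 to 0.199 CPM. The members and gene lists were chosen with earlier results of these data known. Named were all members, Tcf7l2, up to 4 genes of each list with the smallest p over the 3 groups, called genes of the epicardial, retinoic acid and PDGF lists, and the 3 genes nearest to each member in pattern; other genes are named only to say which ones a count holds. The tests were checked on simulated data with no length trend and no outlying library, so that check does not cover what sets lenti-TCF7L2 replicate 3 apart. Alternatives were DESeq2 1.42.0, limma 3.58.1 on log2 FPKM with pseudocounts of 1 or 0.1, other filters and scalings, only the 6 libraries compared, a length trend removed, a replicate block, and each library left out in turn; counts of calls by limma use a pseudocount of 1 and no filter. Libraries with the same number deviated together little (residual correlations from -0.07 to 0.15, over 0.1 in 2 of 9 pairs). Both of those pairs held lenti-TCF7L2 replicate 3, the library with the length trend, so this check cannot exclude pairing. The labels do not state pairing, and the numbers were not taken to pair libraries. Promoter windows are RefSeq's of GRCr8, not the build of the deposited values. Upk3b was not analysed here, and 1 gene of the retinoic acid list is counted but not reported here.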

Additional observations from a re-analysis of the deposited data

How the results depend on the processing

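Over 19 alternatives the calls of Tcf21, Aldh1a2, Pdgfra and Twist1 with overexpression held, as did the fall of Tcf21 with knockdown, and the fall of Aldh1a1 with overexpression held in the 16 that gave it a value. Members called with overexpression stayed between 5 and 7 (main 6), and between overexpression and knockdown between 5 and 7 (main 6). Members called with knockdown, 2 in the main analysis, numbered 5 with DESeq2, 7 with only the 6 libraries compared, 5 with the length trend removed, and 1 to 6 when a library was left out. Of all genes, 3741 were called with overexpression, 2321 with only the 6 libraries compared and 2430 to 5503 when a library was left out. With knockdown 428 were called, 645 with DESeq2, 3294 with only the 6 libraries compared, 989 with the length trend removed and 88 to 2056 when a library was left out. With the replicate block 244 genes were called with knockdown, 2 members among them, and 3460 with overexpression, 6 members among them. The 1 value to change sign was that of Msln with overexpression, 0.0035 without lenti-NC replicate 2 (from -0.27 to 0.0035 when a library was left out), and the cause was not tested. The list counts without lenti-TCF7L2 replicate 3 were chosen after seeing the data. Aldh1a1, at 4 to 22 counts, is the member that depth limits most.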

Other observations

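Genes of activated fibroblasts and myofibroblasts, a list of 16 that were all tested, were called higher in 6 cases and lower in 1 with overexpression (median log2 difference 0.23) and higher in 1 and lower in 1 with knockdown. Over all tested genes 18.0% were called higher and 13.8% lower with overexpression, and 1.32% higher and 2.32% lower with knockdown. Timp1, an inhibitor of matrix metalloproteinases, rose with overexpression by 1.34 (SE 0.21, edgeR adjusted p = 0.00160), and Cthrc1, a secreted gene of injury-activated fibroblasts, rose by 0.60 (SE 0.10, adjusted p = 0.00249). Periostin, Postn, was the 1 gene called lower. With knockdown the contractile gene Cnn1 rose by 0.59 (SE 0.10, edgeR adjusted p = 0.0118) and the matrix gene Cilp fell by 1.46 (SE 0.27, adjusted p = 0.0208). Neither of the last 2 was called with overexpression, at -0.07 and 0.24. Without lenti-TCF7L2 replicate 3 the knockdown counts of the list were 2 higher and 5 lower.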
